A study of Mus musculus with 4 samples.

Results

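The cells described here are 260 cardiomyocytes of the mouse atrioventricular canal at embryonic day E9.5 that were low in 3 genes at once: Myl2, a myosin light chain of the ventricle, Rspo3, a secreted Wnt enhancer taken as the canal marker, and Nppa, the natriuretic peptide of the growing chambers. They are called triple-low cardiomyocytes below. A cell was taken as a cardiomyocyte when Myl7, Myl4, Tnnt2 and Actc1 together reached 100 unique molecular identifiers (UMIs, the counted RNA molecules) per 10000 of the cell and globin stayed under 1000 per 10000. A cardiomyocyte was triple-low when Myl2 was under 10 per 10000, Nppa under 20 per 10000 and Rspo3 under 3 UMIs. Of 1206 E9.5 cells, 1199 had at least 500 genes and at most 10% mitochondrially encoded UMIs, 544 of these were cardiomyocytes, and 260 were triple-low. That is 47.8% of the cardiomyocytes (exact Clopper-Pearson 95% interval 43.5 to 52.1). The other 284 cardiomyocytes of the same library form the comparison.

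The library is 1 of 4 in a single-cell series, which together hold 2160 cells and also cover the mitral valve at E16.5 and at P0. The mice were of the C57BL/6 strain and carried Tie2-Cre, a Cre driven by an endothelial promoter, with a Cre-dependent tdTomato reporter at Rosa26, and no untreated or Cre-free group was used here. Tissue of at least 60 embryos per stage was pooled, digested for 5 or 10 min, and sorted for the red reporter. No row of the gene table holds the reporter, and the purity of the sort is therefore unknown here. With 1 library at E9.5, no difference between sets of its cells has a replicate check, no p-value is given, and the intervals cover counting error only.

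At this age the heart is a looped tube in which the atrial and ventricular chambers balloon out and switch on a working programme, while the canal between them keeps a slow-conducting, primary character held by the T-box repressors Tbx2 and Tbx3. The inflow end of the tube adds atrial myocardium, which depends on the orphan nuclear receptor Nr2f2, and the myocardium of the sinus venosus, which depends on Shox2, Isl1 and Tbx18 and goes on to form the pacemaker. Isl1 also marks the second heart field, the progenitors that add muscle at both ends of the tube.

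The promoter windows of Nppa, a gene that sets the limits, and of Stard10 and Shox2, which had large ratios in the atrial and sinus venosus lists, are shown because the results turn on these genes. Each window runs from 250 bases before to 50 bases after the transcript start in RefSeq (build GRCm38.p6) and is written 5′ to 3′ on the gene's strand. Capitals mark matches, on either strand, to 3 motifs: AGGTGT for T-box factors, TNAAGTG for NKX2-5 and AGATAA for GATA factors. The Nppa window is chr4:148000472-148000771 on the plus strand, that of Stard10 is chr7:101316836-101317135 on the plus strand, and that of Shox2 is chr3:66981722-66982021 on the minus strand.
Nppa: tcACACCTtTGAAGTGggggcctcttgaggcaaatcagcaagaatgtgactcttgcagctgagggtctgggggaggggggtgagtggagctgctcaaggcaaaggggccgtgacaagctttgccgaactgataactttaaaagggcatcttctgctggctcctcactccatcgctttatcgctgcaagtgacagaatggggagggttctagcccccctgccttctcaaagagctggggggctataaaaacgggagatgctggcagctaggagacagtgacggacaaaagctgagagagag
Stard10: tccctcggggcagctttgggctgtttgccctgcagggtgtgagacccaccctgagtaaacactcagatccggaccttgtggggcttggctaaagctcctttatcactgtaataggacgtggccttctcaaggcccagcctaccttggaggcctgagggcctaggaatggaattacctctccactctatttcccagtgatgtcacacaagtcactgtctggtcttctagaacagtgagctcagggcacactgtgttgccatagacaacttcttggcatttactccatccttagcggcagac
Shox2: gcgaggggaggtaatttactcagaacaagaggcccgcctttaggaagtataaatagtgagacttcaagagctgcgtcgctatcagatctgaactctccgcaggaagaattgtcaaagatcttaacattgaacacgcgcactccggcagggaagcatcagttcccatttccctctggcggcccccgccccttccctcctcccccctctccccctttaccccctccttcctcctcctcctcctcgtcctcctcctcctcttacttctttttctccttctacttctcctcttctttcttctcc
The Nppa window holds the T-box motif on the opposite strand, read as ACACCT, at position -248 from the start, and the NKX2-5 motif at -241. As background, the Nppa promoter is known for neighbouring T-box and NKX2-5 sites. The windows of Stard10 and Shox2 held no match to these letters. Among 32851 such windows of the mouse genome, 13.7% held the T-box motif, 11.5% the NKX2-5 motif and 11.2% the GATA motif.

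The limits cut through continuous ranges, and the levels of Myl2, Rspo3 and Nppa describe the choice of cells and are not findings. Summed over the triple-low cells, Myl2 stood at 0.949 UMIs per 10000 against 15.1 in the other cardiomyocytes, Rspo3 at 0.117 against 2.03, and Nppa at 2.66 against 12.01. Myl2 was detected in 64.6% of triple-low cells (median depth 23434 UMIs). The share was 63.5% in the 249 primitive red cells of the same library (32559 UMIs), which should lack it. Since the red cells were deeper, alike shares do not mean alike levels. The median Myl2 level of a cell was 0.463 per 10000 in triple-low cells and 0.280 in red cells. The highest Myl2 level of a triple-low cell was 9.57 per 10000, and the lowest above the limit was 10.0. For Nppa these were 19.8 and 20.2 per 10000. Of the triple-low cells, 206 had 0 Rspo3 UMIs, 36 had 1 and 18 had 2, and 26 cardiomyocytes just past the limit had 3. Few cells lay near the Myl2 limit, with 4 triple-low cells between 8 and 10 per 10000 and 13 cardiomyocytes between 10 and 12. Near the Nppa limit there were 8 triple-low cells between 16 and 20 and 5 cardiomyocytes between 20 and 24.

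**Figure D1:**
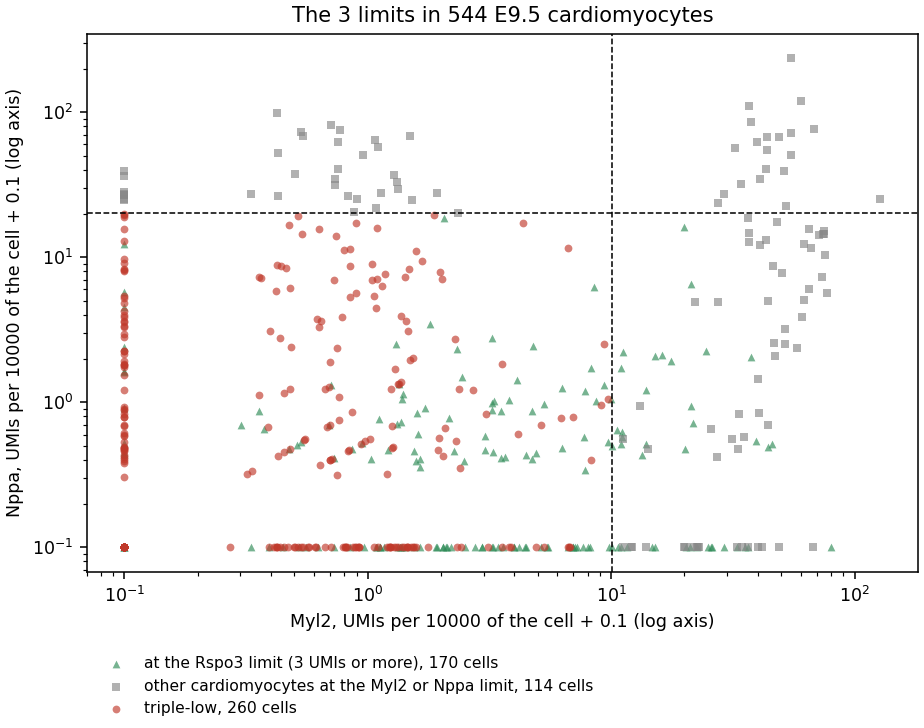
Myl2 (x) and Nppa (y) of each of the 544 E9.5 cardiomyocytes, in UMIs per 10000 of the cell with 0.1 added, both on log axes. Dashed lines mark the limits of 10 and 20 per 10000, triple-low cells fill the lower left corner by construction, and green cells in that corner reached 3 Rspo3 UMIs.

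The other 284 cells held 117 at the Myl2 limit, 170 at the Rspo3 limit and 56 at the Nppa limit. These sets overlap: 39 cells met the Myl2 and Rspo3 limits and 20 the Myl2 and Nppa limits, whereas 0 met the Rspo3 and Nppa limits together. Depth was alike on both sides. Triple-low cells had a median of 23434 UMIs (5480 to 57907) and 4762.5 genes, and the other cardiomyocytes 23479 UMIs (5956 to 49821) and 4793 genes. The sums held 6162350 and 6670088 UMIs. Mitochondrially encoded genes made up 302 per 10000 in triple-low cells and 345 in the others, cytosolic ribosomal protein genes 1363 and 1237, and globin 64.9 and 66.3, and Malat1 26.5 and 29.99. Scrublet scored 1 triple-low cell and 0 of the other cardiomyocytes as a doublet.

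Myl7 and Tnnt2 were among the 4 genes that chose the cells, so their levels describe the choice. Myl7, the atrial and early heart myosin light chain, was found in 260 of 260 triple-low cells, with a median of 263 per 10000 (10% of the cells under 85.9, highest 696), and in the other cardiomyocytes with a median of 271. Red cells of the library, in which free RNA is the background, had a Myl7 median of 7.70. Tnnt2, cardiac troponin T, had a median of 40.4 per 10000 in triple-low cells and 47.1 in the others. The name was checked on genes outside the rule. The Z-disc stress protein Ankrd1 stood at 9.498 per 10000 of the summed cells against 10.3, and the Z-disc crosslinker Actn2 at 3.74 against 5.79, so Actn2 was 1.55-fold lower. Red cells had 0.222 of Ankrd1 and 0.138 of Actn2. Without the 56 triple-low cells that form cluster 3 below, the Actn2 difference was under 1.5-fold (log2 -0.37), as it was in cells thinned to 10000 UMIs. For every ratio in thinned cells the limits were applied again to the thinned counts, which gave 289 triple-low and 201 other cells. The sets thus changed along with depth, and the part of each in a lost call was not tested. Shares of cells after thinning kept the original sets. The cardiac factors Nkx2-5 (6.38 against 6.64 per 10000), Gata4 (1.14 against 0.995), Mef2c (2.60 against 2.39) and Tbx5 (1.03 against 0.879) differed by less than 1.5-fold. Of 15 cardiac transcription factor genes compared, Isl1 was higher and Hand1 lower, and both are described below.

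Markers of other cell types were present at low sums on both sides, and for some types the gap to the remaining cells of the library was small. The 8 endothelial markers together gave 0.815 per 10000 in triple-low cells (0.745 to 0.889), 0.976 in the other cardiomyocytes and 6.47 in the 406 remaining cells, which are neither cardiomyocytes nor red cells. All 8 had at least 1 UMI, and of the 2 that were abundant enough to compare, Kdr was lower in triple-low cells (0.195 against 0.393). The 6 endocardial markers gave 1.33 against 1.26, with 5.22 in the remaining cells, and the 8 cushion mesenchyme markers 0.618 against 0.616, with 9.05. The 8 proepicardial markers gave 4.25 against 5.99, with 8.08 in the remaining cells. The 7 endoderm markers gave 2.97 against 2.96 with Cdh1 at 0 UMIs, and the remaining cells had 3.62, so these 2 sums were not low beside them. The 6 macrophage or platelet markers gave 0.0746 against 0.150 with Ptprc at 0, and the remaining cells had 2.59. The 7 pharyngeal mesenchyme markers gave 0.237 against 0.163, with Dlx2, Foxd1 and Tfap2b at 0 and 2.74 in the remaining cells. The 6 posterior mesoderm markers, which include Osr1 and Gata4, stood at 1.66 (1.56 to 1.76) against 1.09 (1.02 to 1.18), and the remaining cells had 2.67. The pharyngeal and posterior mesoderm sums were thus higher in triple-low cells. They were uneven among these cells: in cluster 3 the pharyngeal markers gave 0.627 per 10000 and the posterior mesoderm markers 3.01. In the other clusters of triple-low cells they gave 0.0927 to 0.163 and 1.07 to 1.41. The part of these markers in the results below was not tested.

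Raw UMIs were summed over each side, and the 5678 genes with at least 0.2 UMIs per 10000 on 1 side were compared as a ratio of shares. Of these, 157 genes (2.77%) were at least 1.5-fold higher in triple-low cells and 225 (3.96%) at least 1.5-fold lower, with a median log2 ratio of 0.04 over all. A gene can reach the minimum on 1 side only, and then it has to differ: this held for 65 of the 157 and 101 of the 225. It applies, above and below, to each compared gene with 1 of its 2 levels under 0.2 per 10000. The direction of such a gene was fixed by the minimum, and its call is no support. The shares of 2.77% and 3.96% are the background for the counts of each gene list below. Since the cells were chosen by 3 genes of the same measurement, genes that follow Myl2, Rspo3 or Nppa had to differ, and the ratios are a description of the chosen cells. The largest ratios on the higher side belonged to Osr1, Shox2, Isl1, Angpt1, Sfrp5, Olfm1, Tbx18, Nr2f1, Calca, Atp2a1, Nr2f2, Hsd3b6, Baiap2l2, Gja5 and Trabd2b. On the lower side they belonged to Irx4, Pln, Gatm, Hand1, Fam189a2, Msx2, Parm1, Tppp3, Perp, Cited1, Cd9, Mov10l1, Tesc, Anxa2 and Myh7. With a Myl2 limit of 20 per 10000 the difference in Tppp3 was under 1.5-fold (log2 -0.48). Hsd3b6 was at 0.271 per 10000 in triple-low cells, 0.0870 in the other cardiomyocytes and 0.619 in red cells.

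**Figure D2:**
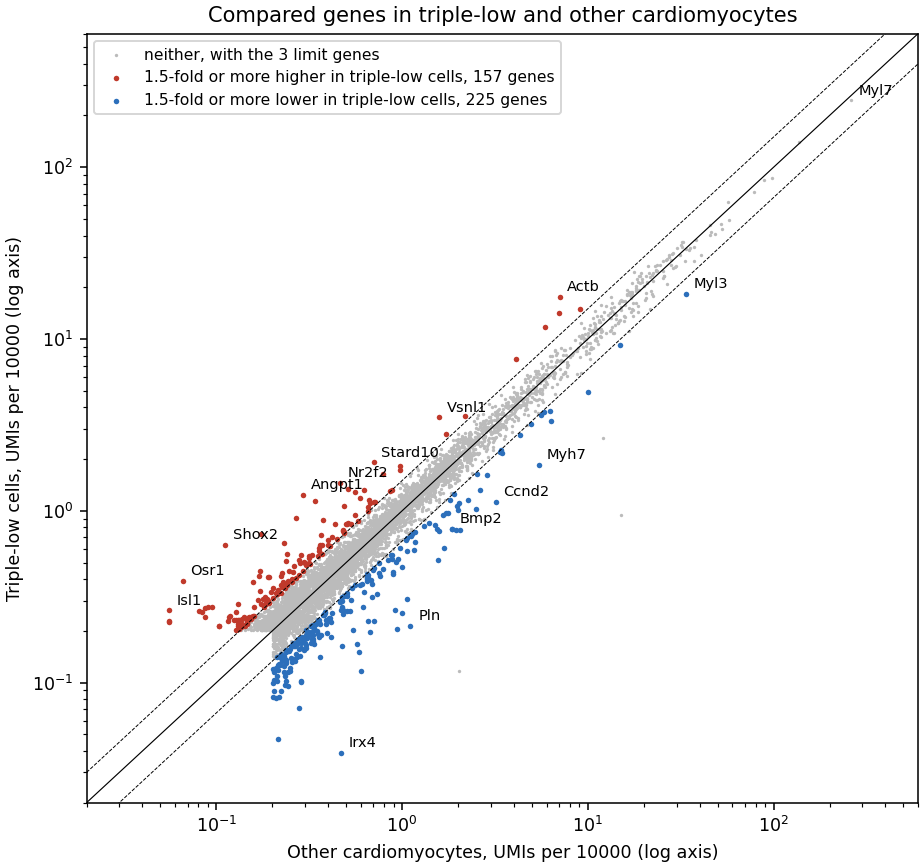
UMIs per 10000 of the summed triple-low cells (y) against the other cardiomyocytes (x) for each compared gene, on log axes, with equality as a solid line and 1.5-fold as dashed lines. Most genes lie between the dashed lines, 157 lie above and 225 below, and the 3 limit genes are drawn in grey.

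Several genes of atrial muscle were higher in triple-low cells, but not the list as a sum. Its genes together gave 27.4 per 10000 against 27.5, and 35.0 in the cells at the Nppa limit. That sum includes the abundant Myl1 and Myh6, given in the next paragraph. Of 12 atrial genes 8 could be compared, and 5 of these were at least 1.5-fold higher and 1 lower, with a median log2 ratio of 1.34. Nr2f2 (chr7:70351944-70366735), the nuclear receptor that gives the atrium its identity, stood at 1.46 per 10000 against 0.460, a ratio of 3.17 (2.78 to 3.62). It was detected in 84.6% of triple-low cells (79.6 to 88.8), 46.1% of the others and 10.0% of red cells. After each cell was thinned to 10000 UMIs the Nr2f2 shares were 69.4%, 28.5% and 2.94%. Its relative Nr2f1 stood at 0.902 against 0.267. Stard10 (chr7:101317086-101346626), which codes for a lipid transfer protein, stood at 1.91 against 0.702 (ratio 2.73, 2.45 to 3.04) and was found in 78.1% of triple-low cells, 46.1% of the others and 10.8% of red cells. Nr2f2 was found in 220 of the 260 cells, Stard10 in 203 and both in 176. Whether this overlap passes what the 2 shares alone would give was not tested.

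Angpt1, the ligand that activates the endothelial receptor Tie2, stood at 1.24 per 10000 in triple-low cells (1.15 to 1.33) and 0.294 in the others (0.254 to 0.338), a ratio of 4.22. Hey1, a Notch target of atrial muscle, stood at 0.881 against 0.373. Calca, the gene of calcitonin and its related peptide, stood at 1.14 against 0.339. The atrial list was not uniform. The alkali light chain Myl1 was lower (9.17 against 14.8), though not past 1.5-fold without cluster 3 (log2 -0.40), while the fast myosin heavy chain Myh6 stood at 10.7 against 9.59 and Tbx5 was under 1.5-fold as given above. Kcnj3, Fgf12, Nkain4 and Sln were too low to compare, and Sln, which codes for the calcium pump regulator sarcolipin of later atria, was found in 4.23% of triple-low cells and 7.04% of the others. Without cluster 3, 5 of 8 were still higher and 0 lower.

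Some genes of the sinus venosus were also higher, while the whole list of 11 genes summed to 15.1 per 10000 against 13.6. A shorter list of 8 sinus venosus markers summed to 5.76 against 3.09, with Vsnl1 alone at 3.497 against 1.58. Of the 11 genes 9 could be compared, with 4 higher (Shox2, Isl1, Tbx18 and Vsnl1), Tbx3 lower, and a median log2 ratio of 0.29. Shox2, Isl1 and Tbx18 reached the minimum only on the triple-low side and Tbx3 only on the other, so these 4 had to differ and their count is no support. Shox2 (chr3:66971727-66981771), the homeobox gene of pacemaker muscle, stood at 0.630 per 10000 (0.569 to 0.696) against 0.111 (0.0871 to 0.139), a ratio of 5.68. It was detected in 25.8% of triple-low cells (20.6 to 31.5), 9.86% of the others and 3.21% of red cells, or 21.4%, 6.15% and 0.420% after thinning. Isl1 (chr13:116298281-116309689), the LIM homeobox gene of the second heart field, stood at 0.263 against 0.0555 (ratio 4.74, 3.30 to 6.97) and was detected in 21.9% of triple-low cells, 7.75% of the others and 1.61% of red cells. Tbx18, the T-box gene of the sinus horns and epicardium, stood at 0.224 against 0.0555 and was found in 19.6%, 8.10% and 4.02%. Vsnl1, a calcium sensor of the sinus node, stood at 3.497 against 1.58 and was detected in 91.9% of triple-low cells, 63.4% of the others and 30.9% of red cells, or 87.3%, 51.2% and 9.66% after thinning. The pacemaker channel gene Hcn4 was too low to compare, at 0.0698 against 0.0270, and Nkx2-5, which the sinus horns lack in textbook accounts, was near equal.

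Of the 260 cells, 67 had a Shox2 UMI and 57 an Isl1 UMI, and 36 had both. Isl1 and Osr1, a marker of the posterior heart field mesoderm, were found together in 16 cells, of 57 and 74 with each. Osr1 (chr12:9570116-9581500) had the largest ratio of all compared genes, at 0.393 per 10000 (0.345 to 0.445) against 0.0660 (0.0479 to 0.0886), 5.95-fold. Osr1 too reached the minimum only on the triple-low side. Cells with Shox2 and cells with Gja5, the connexin of fast-conducting muscle, overlapped in 6 of 67 and 73 cells. Of the 67 cells with Shox2, 61 had an Nr2f2 UMI, close to its share among all 260 cells (84.6%). The other overlaps were not tested against the shares of the genes and are counts only.

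Crabp2, which carries retinoic acid to its receptor, stood at 1.28 per 10000 against 0.556. Tdgf1 and Wnt11, genes of the outflow end, were too low to compare, at 0.0227 against 0.0585 and 0.102 against 0.118. Mab21l2 stood at 0.0828 against 0.217. Without cluster 3 the sinus venosus list had 2 higher and 2 lower of 7, so its count rests partly on that cluster. Without it the log2 ratios were 2.04 for Shox2 and 1.81 for Osr1. Isl1 (0.110 against 0.0555 per 10000, log2 0.98) and Tbx18 (0.0972 against 0.0555, log2 0.81) were then under 0.2 on both sides. They thus no longer counted as compared. With a cardiomyocyte limit of 400 per 10000, the log2 ratio of Isl1 was 0.59, just past 1.5-fold, without the minimum being applied again.

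**Figure D3:**
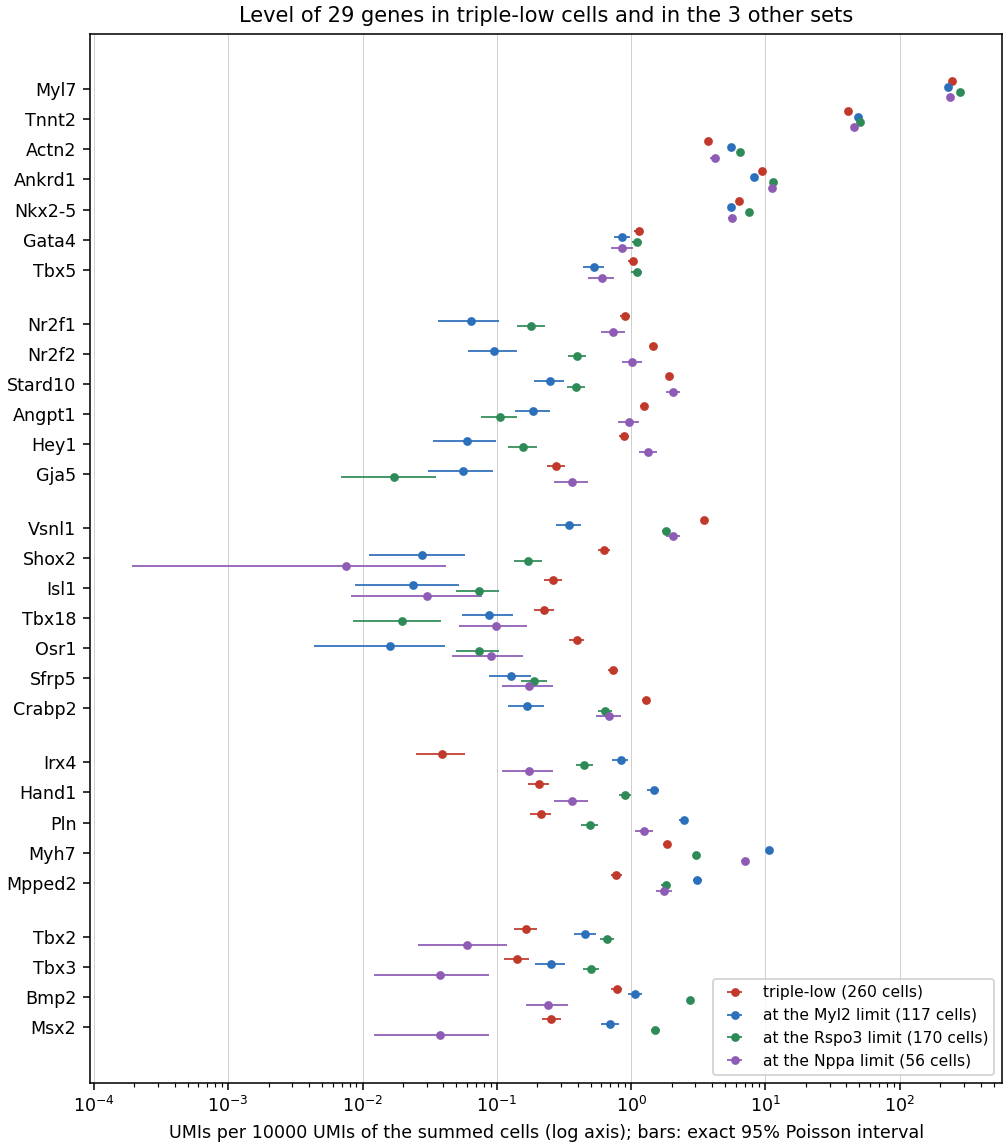
Level of 29 genes (rows) in triple-low cells and in the 3 overlapping sets of cells at the Myl2, Rspo3 or Nppa limit, in UMIs per 10000 of the summed cells on a log axis, with exact 95% Poisson intervals. Nr2f1, Nr2f2, Stard10 and Angpt1 differ by less than 1.5-fold between triple-low cells and the Nppa set, whereas Shox2, Isl1, Tbx18, Osr1 and Sfrp5 are highest in triple-low cells.

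Ventricular genes were lower. Leaving Myl2 aside, 8 of the list were compared and 6 were at least 1.5-fold lower with 0 higher (median log2 ratio -1.48). Irx4, the homeobox gene of ventricular identity, was lowest by ratio, at 0.0389 per 10000 (0.0250 to 0.0579) against 0.466 (0.416 to 0.521), and was found in 7.69% of triple-low cells, 44.7% of the others and 3.21% of red cells. Irx4 reached the minimum only on the other side. Hand1, a factor of the outer curvature and left ventricle, stood at 0.204 against 0.942. Phospholamban, the brake of the calcium pump encoded by Pln, stood at 0.213 against 1.11. The slow myosin heavy chain Myh7 stood at 1.84 against 5.43, the light chain Myl3 at 18.4 against 33.7 and Mpped2 at 0.776 against 2.05. Kcne1 and Hand2 differed by less than 1.5-fold. Hey2, the Notch target of the ventricle, was too low to compare, at 0.0114 against 0.139.

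Of 7 chamber genes compared besides Nppa, Nppb (1.03 against 2.49 per 10000), Cited1 (0.307 against 1.06) and Hopx (1.07 against 1.96) were lower. Gja5 was higher, at 0.274 (0.234 to 0.319) against 0.0900 (0.0686 to 0.116), and was found in 28.1% of triple-low cells, 11.97% of the others and 2.01% of red cells. Smpx, a small muscle protein of working myocardium, stood at 3.31 against 4.01. Fhl2 and Rrad also differed by less than 1.5-fold. Gja5 reached the minimum only on the triple-low side. With an Nppa limit of 40 per 10000 the difference in Nppb was under 1.5-fold (log2 -0.46), so that call moved with the limit on its sister peptide. Without cluster 3 the difference in Hopx was under 1.5-fold (log2 -0.57).

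Canal genes other than Rspo3 were lower too. Of 8 compared, 5 were at least 1.5-fold lower and 0 higher, with a median log2 ratio of -0.95. The repressors Tbx2 and Tbx3 stood at 0.164 against 0.475 and 0.141 against 0.363 per 10000. Bmp2, the ligand with which canal muscle signals to the endocardium, stood at 0.781 against 1.85 and was found in 35.4% of triple-low cells, 57.04% of the others and 11.6% of red cells. Msx2, a target of that signal, stood at 0.255 against 1.00, and the decoy receptor gene Bambi at 2.75 against 4.32. Cacna2d2, Tbx20 and Id2 differed by less than 1.5-fold. In cells thinned to 10000 UMIs and sorted again by the limits, Tbx3 (log2 -0.48) and Bmp2 (log2 -0.53) were under 1.5-fold. Bambi was under 1.5-fold with an Nppa limit of 10 per 10000 (log2 -0.57). Tbx2 and Tbx3 reached the minimum only on the other side. In the wider list of BMP and Id genes, 4 of 14 were lower (Bmp2, Bmp5, Msx2 and Bambi) and 0 higher. Without cluster 3, 6 of the 14 were lower.

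Sarcomere genes were mostly alike on both sides. Of 11 thick filament and light chain genes 1 was higher (Mybphl, 1.33 against 0.882 per 10000) and 3 lower (Myh7, Myl1 and Myl3), and of 14 thin filament genes 1 was higher and 1 lower. Mybphl was under 1.5-fold under 6 alternatives, with a lowest log2 ratio of 0.31. Skeletal actin Acta1, an early heart actin, was the lower one, at 4.90 against 9.96, and the non-muscle tropomyosin Tpm4 the higher one, at 3.58 against 2.17. Cardiac actin Actc1 stood at 141 against 136. Of 17 Z-disc and costamere genes 3 were lower, with Tcap, the titin cap, at 1.15 against 2.26 and Pdlim3 at 0.376 against 0.609 beside Actn2. Without cluster 3 the difference in Tpm4 was under 1.5-fold (log2 0.34). Among 8 smooth muscle-type genes Cald1 (1.33 against 0.622) and Lmod1 (0.604 against 0.358) were higher, while Acta2 and Tagln were near equal at 62.7 against 56.8 and 10.5 against 10.0. Neither call held throughout: Cald1 was under 1.5-fold without cluster 3 (log2 0.41), and Lmod1 in thinned cells (log2 0.30).

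The calcium pump genes differed by isoform. Atp2a1, the pump of fast skeletal muscle, stood at 0.260 per 10000 in triple-low cells and 0.0810 in the others, a ratio of 3.21 (2.34 to 4.45), whereas the main heart pump Atp2a2 stood at 8.81 against 7.21. Atp2a1 reached the minimum only on the triple-low side. Trdn, which anchors the release channel, was lower at 0.789 against 1.85, and the channel gene Ryr2 stood at 1.13 on both sides. Of 21 respiratory chain and energy genes compared, 3 were lower and 0 higher. These were Cox6a2 (3.31 against 6.34), Cox7a1 (1.64 against 2.53) and the fatty acid carrier Fabp3 (1.32 against 2.64), which are muscle forms of their families. Of 18 glycolysis genes 1 was lower, Pfkp (1.16 against 1.80), and 0 were higher. Without cluster 3, Cox7a1 (log2 -0.34) and Pfkp (log2 -0.42) were under 1.5-fold.

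Signalling genes past 1.5-fold went both ways in the Wnt, Notch and growth factor lists, but most had a direction fixed by the minimum. Only Sfrp1, Hey1, Angpt1 and Tgfb2 reached the minimum on both sides. Among these only the growth factor genes, Angpt1 and Tgfb2, went opposite ways. Of 6 Wnt genes compared 2 were higher and 1 lower. The Wnt antagonists Sfrp5 and Sfrp1 were higher, at 0.733 against 0.174 and 1.73 against 0.972 per 10000, and Lef1, a Wnt-responsive factor, was lower at 0.198 against 0.313. Sfrp5 reached the minimum only on the triple-low side and Lef1 only on the other. Of 3 Notch genes compared, the ligand Jag1 (0.414 against 0.189) and Hey1 were higher and Hes1 (0.122 against 0.250) was lower. Jag1 reached the minimum only on the triple-low side and Hes1 only on the other, so their directions were fixed. Of 10 growth factor genes, Angpt1, the guidance gene Slit3 (0.286 against 0.130) and Fgfr1 (0.245 against 0.159) were higher. Tgfb2 (0.761 against 1.59), Vegfa (0.109 against 0.234) and Sema3c (0.141 against 0.213) were lower. Slit3 and Fgfr1 reached the minimum only on the triple-low side, and Vegfa and Sema3c only on the other. Of 13 matrix and adhesion genes 5 were lower and 0 higher, among them Vcan, the proteoglycan of cardiac jelly (0.946 against 1.67), Vcam1 (0.824 against 1.498) and the basement membrane genes Col4a1 (0.318 against 0.504) and Col4a2 (0.187 against 0.309). Under at least 1 alternative Lef1, Slit3, Vcam1, Col4a1 and Col4a2 were under 1.5-fold, with the smallest log2 ratio, 0.43, for Slit3 in thinned cells.

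Of 16 genes of the G2 and M phases 3 were higher and 0 lower, and of 15 S phase genes 0 were past 1.5-fold. The mitotic kinase genes Aurka and Aurkb stood at 0.944 against 0.558 and 0.480 against 0.262 per 10000, and the spindle gene Tpx2 at 0.832 against 0.496. Tpx2 was under 1.5-fold in thinned cells (log2 0.42) and with Rspo3 at 0 UMIs, and Aurka with an Nppa limit of 10 per 10000 (log2 0.56). Ccnd2, a G1 cyclin, was lower at 1.12 against 3.19, as were Gadd45g (0.389 against 0.643) and Ccng1 (0.553 against 0.867), together 3 of 10 in a list of cell cycle inhibitors and D cyclins. Without cluster 3, 6 of 10 compared in that list were lower and 0 higher. In thinned cells Gadd45g (log2 -0.37) and Ccng1 (log2 -0.53) were under 1.5-fold. Cytoskeletal actins were higher, with Actb at 17.7 against 7.03 and Actg1 at 11.8 against 5.895. Without cluster 3, Actb stood at 12.1 and Actg1 at 7.16, a log2 ratio of 0.78 and 0.28, so only Actb was then past 1.5-fold. Of 11 imprinted growth genes H19 was higher (14.2 against 7.003) and Mest lower (3.63 against 5.59), the latter under 1.5-fold with Rspo3 at 0 UMIs (log2 -0.43). The remaining cells of the library had more of all 4 than the triple-low cells, with 45.6 of Actb, 37.5 of Actg1, 19.9 of H19 and 20.1 of Mest per 10000. Of 10 genes that respond to tissue dissociation 0 were past 1.5-fold, and of 10 genes of stretch and TEAD signalling Tgfb2 alone was lower. Without cluster 3, 2 of 10 dissociation genes were lower and 0 higher. Of 11 imprinted genes 4 were then lower and 1 higher.

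Because the other cardiomyocytes mix 3 kinds, each set was also taken alone. Against the cells at the Myl2 limit 395 genes (6.94%) were higher in triple-low cells and 294 (5.17%) lower. Against those at the Rspo3 limit 265 (4.6%) were higher and 369 (6.41%) lower. Against those at the Nppa limit 493 (8.65%) were higher and 206 (3.61%) lower, a comparison with only 56 cells and 1328492 UMIs. Of the 157 genes higher than in the pooled others, 142 were also higher than in the Myl2 set, 135 than in the Rspo3 set and 77 (49.0%) than in the Nppa set. Of the 225 lower genes, 178 were also lower than in the Myl2 set, 202 than in the Rspo3 set and 66 (29.3%) than in the Nppa set. Triple-low cells serve in each of these comparisons, so the counts are not independent of one another.

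The 4 leading atrial genes were within 1.5-fold in triple-low cells and the Nppa set, as were Gja5 (0.274 against 0.361 per 10000) and Calca (1.14 against 0.964), which are outside the atrial list. Stard10 stood at 1.91 per 10000 in triple-low cells, 2.05 in the Nppa set, 0.390 in the Rspo3 set and 0.247 in the Myl2 set. Nr2f2 stood at 1.46, 1.02, 0.397 and 0.0956 in the same order, Nr2f1 at 0.902, 0.738, 0.180 and 0.0638, and Angpt1 at 1.24, 0.956, 0.105 and 0.187. Hey1 was higher in the Nppa set (1.33) than in triple-low cells (0.881). Shox2 and Isl1 differed from the Nppa set. Shox2 stood at 0.630 in triple-low cells, 0.00753 in the Nppa set, 0.171 in the Rspo3 set and 0.0279 in the Myl2 set, and Isl1 at 0.263, 0.0301, 0.0731 and 0.0239. The 1 Shox2 UMI of the Nppa set leaves its level there poorly known.

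In all, 52 genes (0.916%) were at least 1.5-fold higher than in each of the 3 sets and 40 (0.704%) lower than in each. The 52 held Shox2, Isl1, Tbx18, Osr1, Vsnl1, Crabp2, Sfrp5 and Sfrp1, with Actb, Actg1, H19, Cald1, Tpm4, Aurka, Aurkb and Tpx2. The 40 held the ventricular genes Irx4, Hand1, Pln, Myh7, Myl3 and Mpped2, with Myl1, Acta1, Trdn, Hopx, Vcam1, Vegfa, Bmp5 and Mab21l2. Without cluster 3, 27 of the 52 and 23 of the 40 were still past 1.5-fold against each set. Those that were not included Isl1, Tbx18, Sfrp1, Actg1, H19, Cald1, Tpm4 and Aurkb among the 52, and Myl3, Myl1, Acta1, Trdn, Hopx, Vcam1 and Vegfa among the 40. None of the canal genes Tbx2, Tbx3, Bmp2 and Msx2 was among the 40, and each was lower still in the Nppa set, for example Msx2 at 0.255 per 10000 in triple-low cells and 0.0376 in the Nppa set.

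The triple-low cells were not uniform. Clustering them alone gave 5 clusters, kept by number because no list of markers set one name apart. The genes below were used for the clustering, so their differences are a description. Cluster 0, with 48 cells, was led by Gja5, Cck, Ube2l6, Atp2a1, Casq1, Tnnt1, Acta1 and Col2a1. Gja5 stood at 1.05 per 10000 there (0.846 to 1.28) and 0.141 in the other triple-low cells, and was found in 75% of its cells. It had the most Nr2f2 (2.33) and Stard10 (2.75) and the least Isl1 (0.0330) and Shox2 (0.176), and G2 and M phase genes together gave 11.9 per 10000 against 17.6 in cluster 4 and 27.3 to 59.6 in clusters 1, 2 and 3. Its cells were the shallowest by median, at 19066 UMIs, and the part of depth in the low level of cycle genes was not tested.

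Cluster 1, with 61 cells, was led by Nppa, Smpx, Nppb, Calca, Ccnd2, Ung, Mycn and Tnni2, a mix of chamber and S phase genes. Its Nppa level was 4.35 per 10000 (4.04 to 4.68), still below the limit for each cell, and cluster 0 had 4.78. Cluster 2, with 68 cells, was led by the mitotic genes Ccnb1, Cdc20, Ube2c, Cks2, Aurka, Cenpf, Cdk1 and Hmmr, and 11 of 16 genes of the G2 and M phases were at least 2-fold higher there than in the other triple-low cells. Cluster 4, with 27 cells, was led by Bmp2 (2.75 per 10000 against 0.592 in the other triple-low cells), Gal, Hist1h1c, Myl2, Perp, Shisa2, Cd9 and Hist1h2bc. In cluster 4, 17 of 27 cells had 1 or 2 Rspo3 UMIs and 10 had 0, and 5 of 8 canal markers were at least 2-fold higher.

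**Figure D4:**
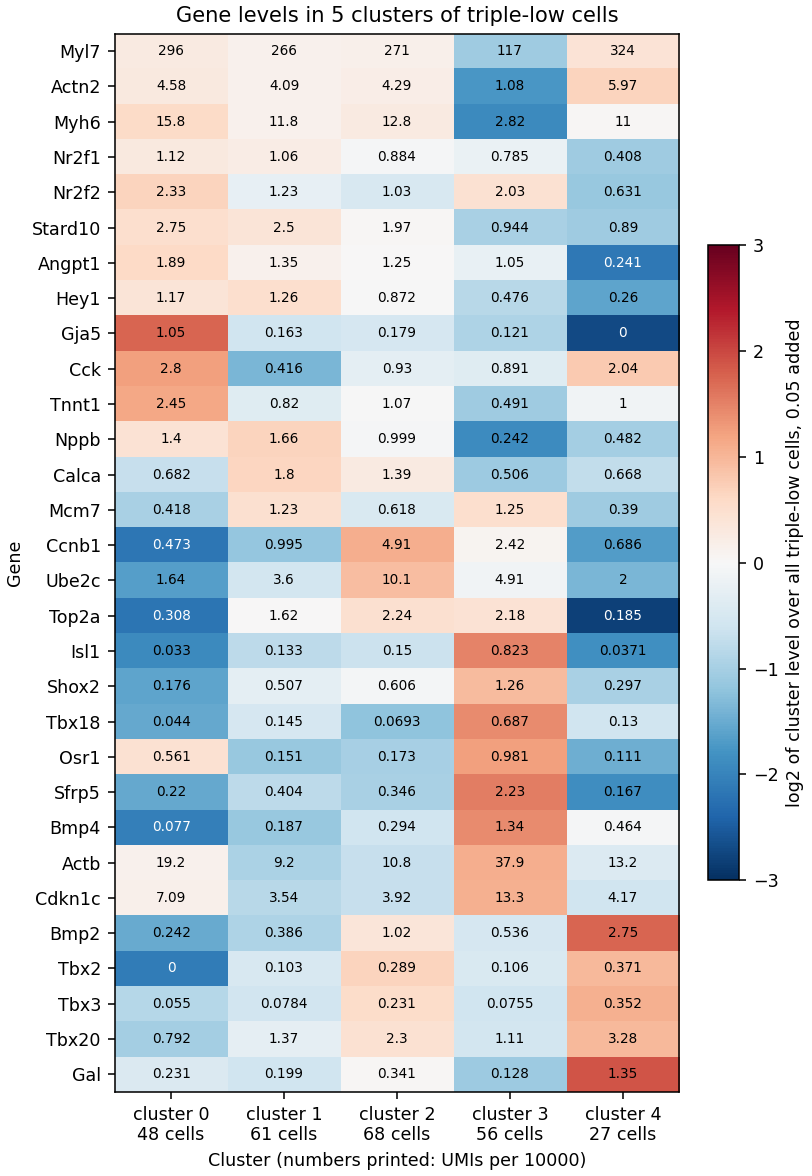
Level of 30 genes (rows) in the 5 clusters of triple-low cells (columns), printed in UMIs per 10000 of the summed cells and coloured by log2 of the level over that of all triple-low cells, with 0.05 added to both. Isl1, Shox2, Tbx18, Osr1, Sfrp5 and Bmp4 are highest in cluster 3, Gja5 in cluster 0, cyclin and mitotic genes in cluster 2 and Bmp2 in cluster 4.

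Cluster 3, with 56 cells, was led by Actg1, Sfrp5, Actb, Meg3, Cdkn1c, Cald1, Id3 and Mest. Among the 5 clusters it had the highest levels of 5 inflow and progenitor genes, with Isl1 at 0.823 per 10000 (0.676 to 0.993) against 0.110 in the other triple-low cells, Tbx18 at 0.687, Osr1 at 0.981, Shox2 at 1.26 and Bmp4 at 1.34. The whole list of 11 sinus venosus and pacemaker genes was not highest there, at 15.2 per 10000 together against 14.1 to 15.7 in the others. The shorter list of 8 sinus venosus markers was highest there, at 8.21 together against 4.10 to 5.50 in the others. Of its 56 cells 33 had an Isl1 UMI and 31 a Shox2 UMI. Nr2f2 stayed high there, at 2.03, while Stard10 was low, at 0.944. At least 2-fold higher were 4 of 8 sinus venosus markers and 4 of 8 proepicardial markers, among them Tbx18, Wt1 (0.189), Upk3b (0.317) and Tcf21 (0.302). The same held for 2 of 8 ventricular, 2 of 8 cushion mesenchyme and 2 of 6 posterior mesoderm markers. It also held for 1 of 6 endocardial and 1 of 7 pharyngeal mesenchyme markers. Since markers of several cell types were higher, the cluster was left without a name.

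Muscle genes were low in cluster 3. Myl7, Myl4, Tnnt2 and Actc1 together had a median of 204 per 10000 of the cell, against 551 to 623 in the other clusters, and 27 of its 56 cells were under 200. Depth did not move with this, at a median of 23515 UMIs. Myh6 stood at 2.82 per 10000 there and 10.98 to 15.8 in the others. Of the 260 triple-low cells 27 were under 200 and 61 under 400 per 10000, against 3 and 44 of the other 284 cardiomyocytes. The lowest triple-low cell had 102 per 10000, the highest cell under the cardiomyocyte limit had 99.4, and 23 cells lay between 50 and 100, so the lower edge of cluster 3 was set by the limit. Genes of dissociation stress were also higher in cluster 3, at 16.04 per 10000 together against 7.04 to 9.37, with Fos at 3.86 and Jun at 2.02, and their part in the cluster was not tested.

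**Figure D5:**
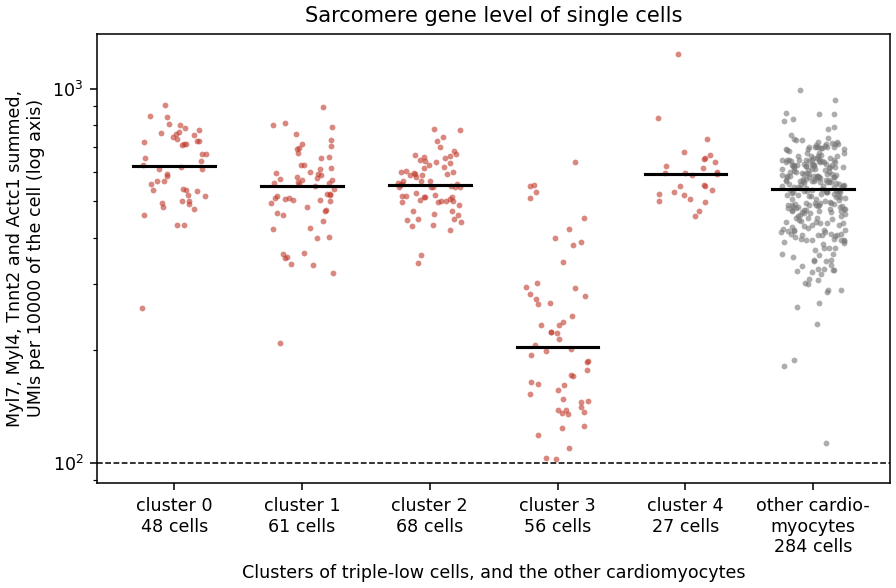
Summed Myl7, Myl4, Tnnt2 and Actc1 of each cell, in UMIs per 10000 of the cell on a log axis, for the 5 clusters of triple-low cells and the other 284 cardiomyocytes, with medians as bars and the limit of 100 dashed. Cluster 3 sits lowest, with a median of 204, and its lowest cells reach the limit.

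Clusters 0 and 3 were found again under each of the 3 other settings, and the rest moved more. At resolution 1.0, all 27 cells of cluster 4 fell in a cluster of 29, while clusters 1 and 2 were split. With another random seed there were 4 clusters, which held 47 of the 48 cells of cluster 0 in 1 cluster and 48 of the 56 cells of cluster 3 in another, and 26 of the 27 cells of cluster 4 joined a cluster of 89. Without cell cycle genes, 47 and 49 cells of clusters 0 and 3 stayed together. Removing cluster 3 left 113 genes higher and 205 lower in the remaining 204 triple-low cells. Without it the atrial genes had log2 ratios of 1.63 for Stard10, 1.498 for Nr2f2, 2.14 for Angpt1 and Gja5 of 1.81, whereas those of Sfrp5 (0.89) and Cald1 (0.41) were smaller.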

How the data were processed

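The E9.5 library was analysed alone, as UMI counts per gene and cell, 30819374 UMIs in 1206 cells. The deposited counts were made by the authors with Cell Ranger 2.1.1 on mm10, per the submitters' processing notes, and are whole numbers without normalization; for the cell-calling rule, settings and counting strand the sources used here give nothing, so antisense and overlapping genes cannot be told apart. The deposited gene table, other text values, pairs 27998 Ensembl identifiers with symbols; 121 identifiers share a symbol. The deposited barcode list holds all 737280 barcodes, so barcodes shared between libraries were not counted and cells were used by column. Doublets were scored with scrublet but kept.

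Members and gene lists were chosen with earlier results of these data known. UMIs were summed over cells and given per 10000, with exact Poisson intervals at 95%, ratios with exact conditional intervals and shares of cells with exact Clopper-Pearson intervals. Genes under 0.2 per 10000 on both sides were not compared. Named were the limit and marker genes, list genes with the largest ratios or a defining role, the 15 largest ratios each way and the 8 leading genes of each cluster; genes of the list higher or lower than all 3 sets were picked from their values. The arithmetic of the comparison was checked on simulated Poisson counts of the summed sides with planted changes. These counts held no variation between cells and no choice of cells by the limits, so the check cannot speak to either. Clusters were made with scanpy 1.11.5 (2000 variable genes, 15 components, 15 neighbours, Leiden resolution 0.5). TMM scaling used edgeR 4.0.16. Positions come from GENCODE on GRCm38. Alternatives changed each limit, scaling, filter, fold and clustering setting. A gene and the outflow tract list that holds it are not reported here.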

Additional observations from a re-analysis of the deposited data

How the results depend on the processing

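The number of triple-low cells was 206 with Rspo3 at 0 UMIs, 284 with an Nppa limit of 40, 233 with a cardiomyocyte limit of 200 and 289 of 490 cells thinned to 10000 UMIs. With a cardiomyocyte limit of 400, chosen like the removal of cluster 3 after seeing the data, it was 199. Genes higher numbered 243 after thinning, 1533 with only 1 UMI required on each side, 27 with at least 1 per 10000 and 41 at 2-fold. Genes lower numbered 235 after thinning, where the excess of lower genes was gone, and 1977, 49 and 54 under the other 3 settings. TMM scaling gave 151 and 233. Resolution 1.0 gave 8 clusters. Of 80 named genes past 1.5-fold, 0 reversed over 1200 alternative values and 57 values, of 27 genes, fell under 1.5-fold. The minimum of 0.2 per 10000 was not applied again to these values. The 80 genes were taken for being past 1.5-fold, and the alternatives reuse much of the same cells. A reversal was therefore unlikely from the start, and its absence is no support. No paired analysis was possible because E9.5 has 1 library. Genes under about 0.2 per 10000, such as Hcn4, are limited by depth.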
